A study of Mus musculus with 30 samples.

Results

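The catalytically active myotubularins are phosphatases that remove the phosphate at the 3 position of phosphoinositides. The 8 genes described here, *Mtm1*, *Mtmr1*, *Mtmr2*, *Mtmr3*, *Mtmr4*, *Mtmr6*, *Mtmr7* and *Mtmr14*, were chosen by name as the active members of this family, out of 36103 genes in the deposited count table. RNA-seq covered 4 tissues, namely gastrocnemius (a hindlimb muscle of mostly fast fibres), diaphragm, heart and liver, of male *Mtm1*-/y mice (labelled Mtm1KO) and WT littermates, all on the 129Pas background and all 5 weeks of age. The *Mtm1*-/y mice carry a constitutive knock-out, so *Mtm1* is disrupted in every cell type of each tissue. There were 4 WT and 4 *Mtm1*-/y libraries in the gastrocnemius and in the heart, 4 WT and 3 *Mtm1*-/y libraries in the diaphragm, and 3 WT and 4 *Mtm1*-/y libraries in the liver, and the study's methods count each library as 1 mouse.

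Myotubularins act on PI3P, a lipid made by PI 3-kinases on endosomes and autophagosomes, and on PI(3,5)P2, which the PIKfyve kinase makes from PI3P. Loss of *MTM1* in humans causes X-linked myotubular myopathy, a severe congenital weakness of skeletal muscle. *Mtmr1* and *Mtmr2* encode the phosphatases closest in sequence to myotubularin, and *MTMR2* is mutated in a demyelinating Charcot-Marie-Tooth neuropathy. The proteins of *Mtmr3* and *Mtmr4* carry a FYVE zinc finger, those of *Mtmr6* and *Mtmr7* form a subgroup that pairs with the inactive partner Mtmr9, and Mtmr14, also called Jumpy, is the most distant of the active phosphatases.

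The feature that makes these proteins active is a short loop in which a cysteine attacks the phosphate and an arginine holds it. The coding sequence of this loop is shown for all 8 members because it is the sequence that sets them apart from the inactive partners. Each run of 27 bases was read 5′ to 3′ on the coding strand from the GENCODE M21 transcript sequences and placed on mm10. The capitals mark the codons of the catalytic cysteine and arginine.
Mtm1: cacTGCagtgacggatgggacAGGacc
Mtmr1: cacTGCagtgatgggtgggatCGAaca
Mtmr2: cacTGCagtgatggatgggatCGCaca
Mtmr3: cacTGCtccgatggctgggatCGGact
Mtmr4: cacTGCtctgacggctgggacCGTaca
Mtmr6: cacTGTtccgatgggtgggacAGGacc
Mtmr7: cacTGTtctgacggctgggacAGAacg
Mtmr14: cacTGTatctcaggctgggacCGGacc
A loop of this form was found in 8 of 8 members and in 0 of the 6 inactive partners (*Sbf1*, *Sbf2*, *Mtmr9*, *Mtmr10*, *Mtmr11* and *Mtmr12*). This follows from the definition of both sets and is no separate result. The loops of *Mtmr1* and *Mtmr2* were the most alike pair, with 25 of 27 bases identical. The *Mtm1* loop shared 22 of 27 bases with that of *Mtmr2* and 21 of 27 with those of *Mtmr1*, *Mtmr4*, *Mtmr6* and *Mtmr7* each. It shared 19 of 27 with those of *Mtmr3* and *Mtmr14*. The *Mtmr14* loop shared 17 to 20 of 27 bases with the others. In *Mtm1* the loop lies at chrX:71299634-71299660 on the plus strand, in exon 11 of 15, with the cysteine at codon 375 and the arginine at codon 381. The others lie at chrX:71401794-71401820 (*Mtmr1*, plus strand), chr9:13799942-13799968 (*Mtmr2*, plus strand), chr11:4492776-4492802 (*Mtmr3*, minus strand), chr11:87604099-87604125 (*Mtmr4*, plus strand), chr14:60293417-60293443 (*Mtmr6*, plus strand), chr8:40562636-40562662 (*Mtmr7*, minus strand) and chr6:113265990-113266016 (*Mtmr14*, plus strand). No pair of the 28 pairs of members shared a run of 50 bases, the read length, in their exons.

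The libraries held 24873817 to 44289343 counts each. Over the 30 libraries, the lowest and highest counts were 101 and 965 for *Mtm1*, 840 and 1964 for *Mtmr1*, 507 and 1146 for *Mtmr2*, 1165 and 4042 for *Mtmr3*, 555 and 3255 for *Mtmr4*, 647 and 3248 for *Mtmr6*, 384 and 1041 for *Mtmr14*, and 2 and 352 for *Mtmr7*, whose values outside the liver rest on the fewest reads. Tissue labels matched their markers. The sum of 10 skeletal muscle fibre markers was 146000 to 273000 CPM in the gastrocnemius and 53000 to 82800 CPM in the diaphragm, that of 10 cardiomyocyte markers was 54200 to 70300 CPM in the heart, and that of 10 hepatocyte markers was 183000 to 240000 CPM in the liver. The diaphragm libraries stood apart from each other in hepatocyte markers. Their sum was 36900, 24500, 464 and 27000 CPM in WT 1 to 4 and 2990, 46700 and 798 CPM in *Mtm1*-/y 1, 2 and 4, so 4 libraries (3 WT and 1 *Mtm1*-/y) were over 10000 CPM. Calls in the diaphragm that changed without these 4 libraries are given both ways below, with the 1 remaining WT library assumed to vary like the other groups.

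Levels of a gene are normalised read counts (CPM, TMM-scaled over all 30 libraries), listed by replicate number (1 to 4, *Mtm1*-/y diaphragm 1, 2 and 4). The log2 fold changes of *Mtm1*-/y over WT come from edgeR's quasi-likelihood test, fitted to 1 tissue at a time. A gene was called at a Benjamini-Hochberg adjusted p under 0.05 over all genes tested. TMM sets libraries to a common level of most genes. In the gastrocnemius, scaling by library totals alone in its place moved the median log2 fold change of all genes from 0.016 to 0.351 and the share of higher genes among called genes from 48.5% to 92.2%. In the diaphragm, heart and liver the same change of scale left that median at 0.03, -0.06 and -0.03. Where the scale changed a call or a direction in the gastrocnemius, values are therefore given on both. On library totals 53.7% of all genes were called in the gastrocnemius (49.5% higher and 4.19% lower).

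*Mtm1* itself, the disrupted gene (ENSMUSG00000031337, chrX:71210767-71315691), lay below the WT range in all 15 *Mtm1*-/y libraries. In the gastrocnemius its level was 20.95, 20.9, 22.3 and 20.8 CPM in the WT libraries against 4.31, 5.29, 4.74 and 5.76 CPM in the knock-out. In the heart it was 21.1, 22.6, 26.9 and 21.3 CPM against 3.95, 4.11, 3.49 and 3.84 CPM. In the diaphragm it was 17.7, 19.04, 24.4 and 16.1 CPM against 4.20, 3.68 and 4.05 CPM, and in the liver 15.9, 24.04 and 19.03 CPM against 6.72, 8.19, 4.41 and 6.74 CPM. The genotypes did not overlap in any tissue, and reads of the gene remained in each knock-out library. The counts cover every exon of the gene, so they do not show which exons these reads came from.

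The log2 fold change of *Mtm1* was -2.07 (SE 0.1, adjusted p = 2.1e-05) in the gastrocnemius, -2.26 (SE 0.171, adjusted p = 0.027) in diaphragm and -2.59 (SE 0.109, adjusted p = 2.6e-05) in heart. In the liver it was -1.60 (SE 0.226), which missed the threshold by edgeR (adjusted p = 0.37, unadjusted p = 7.7e-05) and passed it by DESeq2 (adjusted p = 1.5e-06). The mean level in *Mtm1*-/y mice was 23.7% of WT in gastrocnemius, 20.6% in diaphragm, 16.7% in heart and 33.2% in liver. The fall in the heart exceeded that in the gastrocnemius by 0.50 on the log2 scale (difference -0.50, SE 0.141, adjusted p = 0.023 by edgeR's test of the difference, and -0.90, adjusted p = 4e-04, on library totals). The liver and the heart differed by 0.99 with an adjusted p of 0.4, and the heart and the diaphragm by -0.31 with an adjusted p of 0.61 (-0.03 without the 4 diaphragm libraries high in hepatocyte markers). The diaphragm call was lost when WT 1, WT 2, *Mtm1*-/y 1 or *Mtm1*-/y 4 was left out (adjusted p = 0.16, 0.23, 0.23 and 0.26), while without the 4 libraries high in hepatocyte markers the log2 fold change was -2.54 (adjusted p = 1.1e-05).

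**Figure D1:**
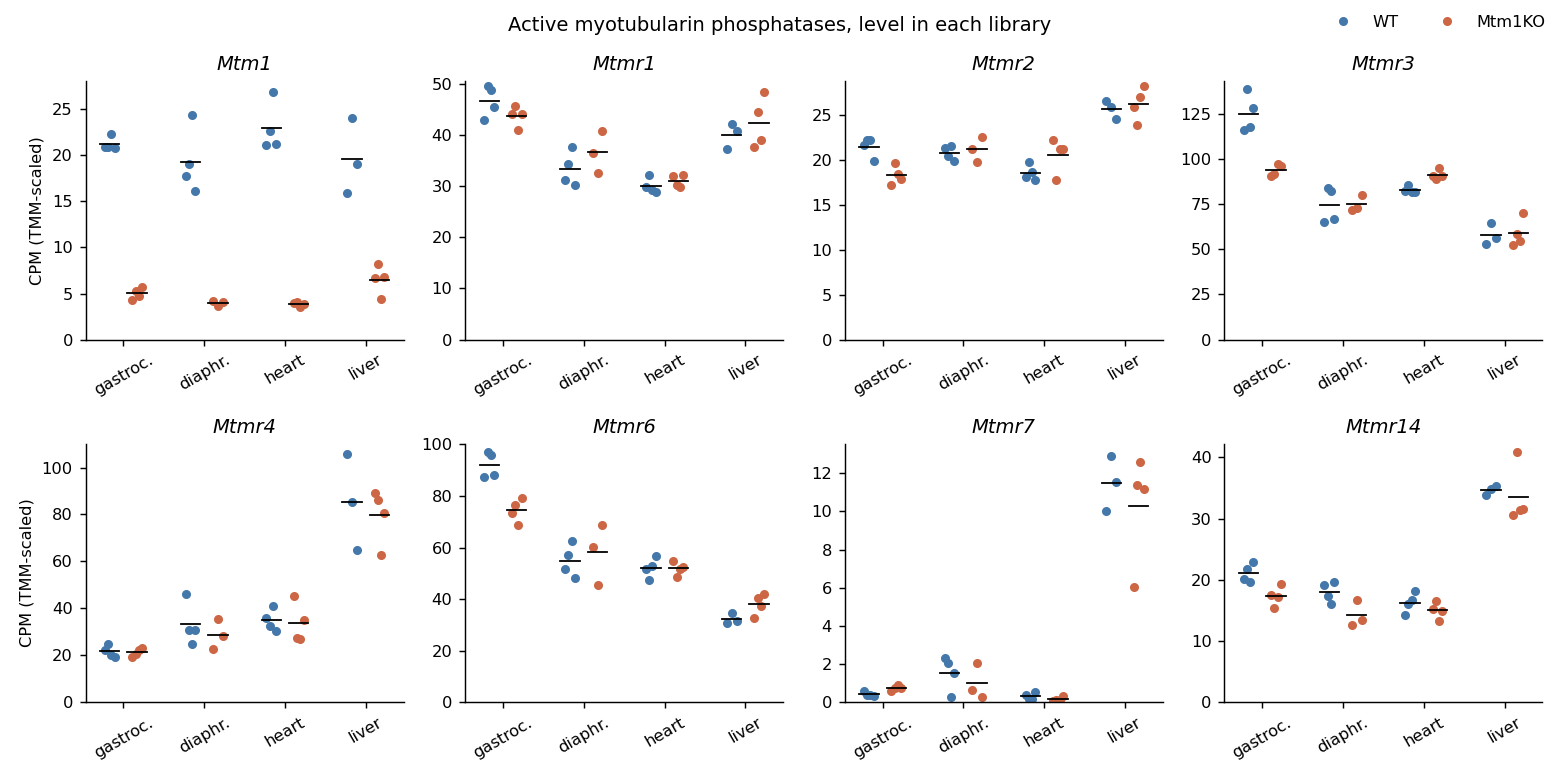
Level of each active myotubularin phosphatase in each of the 30 libraries, in CPM after TMM scaling (vertical axis), by tissue. Blue points are WT, orange points Mtm1KO libraries, and black lines group means. *Mtm1* falls from 15.9 to 26.9 CPM in WT to 3.49 to 8.19 CPM in *Mtm1*-/y mice, and *Mtmr4*, *Mtmr7* and *Mtmr14* are highest in the liver.

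In WT mice the members had different tissue patterns. Of the 8, those that passed the test numbered 6 between heart and gastrocnemius (61.3% of all genes passed), 2 between heart and diaphragm (51.7%), 6 between gastrocnemius and diaphragm (54.4%), 7 between liver and gastrocnemius (79.5%), 7 between liver and diaphragm (76.1%) and 7 between liver and heart (76.4%). *Mtm1* was the exception, with 0 of its 6 tissue contrasts called by edgeR. Its mean was 21.2 CPM in the gastrocnemius (SD 0.733), and its log2 differences ranged from -0.27 (liver against heart, adjusted p = 0.12) to 0.25 (heart against diaphragm, adjusted p = 0.14, and -0.10, adjusted p = 0.83, without the 4 diaphragm libraries high in hepatocyte markers). On library totals, where the median of all genes moved to 0.67 between heart and gastrocnemius and to -0.67 between liver and heart, the same contrasts of *Mtm1* were 0.67 (adjusted p = 0.00052) and -0.81 (adjusted p = 0.00017). On that scale the gastrocnemius and the liver were also below the diaphragm (-0.35, adjusted p = 0.035, and -0.49, adjusted p = 0.0081). Without WT liver 2 the liver was below the heart (-0.44, adjusted p = 0.017) and below the gastrocnemius (-0.36, adjusted p = 0.042).

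*Mtmr1* (chrX:71364760-71419196, next to *Mtm1*) was highest in the gastrocnemius on the TMM scale, at 42.8, 49.5, 48.7 and 45.5 CPM in WT. Its WT level was 37.1, 42.2 and 40.7 CPM in the liver, 31.1, 34.3, 37.7 and 30.1 CPM in the diaphragm and 29.8, 32.1, 29.2 and 28.8 CPM in the heart. The liver was below the gastrocnemius (-0.30, adjusted p = 0.0058) and above the diaphragm (0.22, adjusted p = 0.03), although the latter turned to -0.26 (adjusted p = 0.012) on library totals and was lost in 6 of 15 fits that left out 1 library (WT diaphragm 1 or 4, WT heart 1 or 4, WT liver 2 or 3). Without the 4 diaphragm libraries high in hepatocyte markers the liver and diaphragm difference of *Mtmr1* was 0.11 (adjusted p = 0.48). The diaphragm and heart did not differ beyond their spread (-0.16, adjusted p = 0.11), but the heart was called lower without WT diaphragm 1 or 4 or WT heart 1 or 4 (-0.26 to -0.20, adjusted p = 0.012 to 0.048). The gastrocnemius was above the diaphragm by 0.52 (adjusted p = 1e-04), and by 0.32 (adjusted p = 0.089) without those 4 libraries. On library totals that difference turned to -0.0026, the liver and heart difference turned from 0.38 to -0.17, and the heart and gastrocnemius difference moved from -0.67 to -0.08 (adjusted p = 0.36).

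*Mtmr2* (chr9:13748410-13806481) was highest in the liver on the TMM scale but not on library totals, where the liver was below the diaphragm (-0.22, adjusted p = 0.03, against 0.26, adjusted p = 0.0033, with TMM). The latter was 0.28 (adjusted p = 0.063) without the 4 diaphragm libraries high in hepatocyte markers. Its WT level was 26.6, 25.96 and 24.6 CPM in the liver, 21.6, 22.2, 22.2 and 19.9 CPM in the gastrocnemius, 21.3, 20.5, 21.6 and 19.95 CPM in the diaphragm and 18.1, 19.8, 18.6 and 17.8 CPM in the heart. The liver was above the heart by 0.43 (adjusted p = 4.8e-05) and above the gastrocnemius by 0.18 (adjusted p = 0.024), but on library totals the first of these turned to -0.12 (adjusted p = 0.21), and the second was lost without WT gastrocnemius 4 or WT liver 1 or 2 (adjusted p = 0.063 to 0.076). The gastrocnemius and diaphragm did not differ beyond their spread (0.08, adjusted p = 0.32), but on library totals their difference turned to -0.44 (adjusted p = 0.00019). The heart and gastrocnemius difference of *Mtmr2* turned likewise, from -0.25 to 0.35 (adjusted p = 0.0011). With TMM the heart was below the diaphragm by a log2 difference of -0.17 (adjusted p = 0.037, DESeq2 0.081). That call was lost in 1 of 15 fits that left out 1 library. It did not hold on library totals (-0.10, adjusted p = 0.31) or without the 4 diaphragm libraries high in hepatocyte markers (-0.23).

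The members with a FYVE zinc finger went in opposite directions. *Mtmr3* (chr11:4480868-4594863) was highest in the gastrocnemius, at 116, 139, 118 and 128 CPM in WT, followed by the heart at 81.8 to 85.9 CPM, the diaphragm at 64.9 to 84.1 CPM and the liver at 52.9 to 64.6 CPM. Its liver level was lower than that of the gastrocnemius by a log2 difference of -1.19 (adjusted p = 2.4e-07), and its heart and diaphragm did not differ beyond their spread (0.15, adjusted p = 0.22, and 0.23, adjusted p = 0.049, on library totals). On library totals its heart and gastrocnemius did not differ beyond their spread either (-0.03, adjusted p = 0.76). *Mtmr4* (chr11:87592162-87616302) was highest in the liver, at 106, 85.3 and 64.9 CPM, against 19.4 to 24.99 CPM in the gastrocnemius, 24.97 to 46.3 CPM in the diaphragm and 30.2 to 40.9 CPM in the heart. The liver exceeded the gastrocnemius 3.72-fold (log2 difference 1.90, adjusted p = 9.7e-07). The gastrocnemius was below the diaphragm by a log2 difference of -0.58 (adjusted p = 0.019), a call lost without WT gastrocnemius 4 (-0.52, adjusted p = 0.056) and without the 4 diaphragm libraries high in hepatocyte markers (-0.19, adjusted p = 0.7).

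The members of the Mtmr9-binding subgroup also diverged. *Mtmr6* (chr14:60265228-60302370) was highest in the gastrocnemius at 87.2, 97.0, 95.8 and 88.3 CPM and lowest in the liver at 30.8, 34.7 and 31.3 CPM in WT, a log2 difference of -1.59 (adjusted p = 4.7e-09). Its diaphragm (48.0 to 62.4 CPM) and heart (47.4 to 56.6 CPM) did not differ beyond their spread (-0.07, adjusted p = 0.52, and 0.0073 on library totals). *Mtmr7* (chr8:40551095-40634797) was a liver gene in these libraries, at 10.0, 12.9 and 11.5 CPM in the liver and 0.350 to 0.574 CPM in the gastrocnemius. The liver exceeded the gastrocnemius 25.6-fold (95% interval 11.5 to 56.7, adjusted p = 1.7e-06) and the heart 34.1-fold. *Mtmr7* shares 40 exonic bases with *Vps37a* on the opposite strand, and the strand setting of the counting is not given in the sources used here.

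Among the muscles, *Mtmr7* reached its highest WT level in the diaphragm, at 2.33, 2.06, 0.279 and 1.51 CPM. The WT library low in *Mtmr7*, number 3, was also the WT library low in hepatocyte markers, and the *Mtm1*-/y diaphragm libraries, at 0.631, 2.04 and 0.300 CPM, were ordered as their hepatocyte marker sums were. The gastrocnemius was below the diaphragm by a log2 difference of -1.84 (adjusted p = 0.0074) and the heart by -2.25 (adjusted p = 0.0023). Without the 4 libraries high in hepatocyte markers these differences turned to 0.61 (adjusted p = 0.6) and 0.20 (adjusted p = 0.9), and that of liver against diaphragm moved from 2.84 to 5.37. All 10 hepatocyte markers had counts in the diaphragm of both genotypes.

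**Figure D2:**
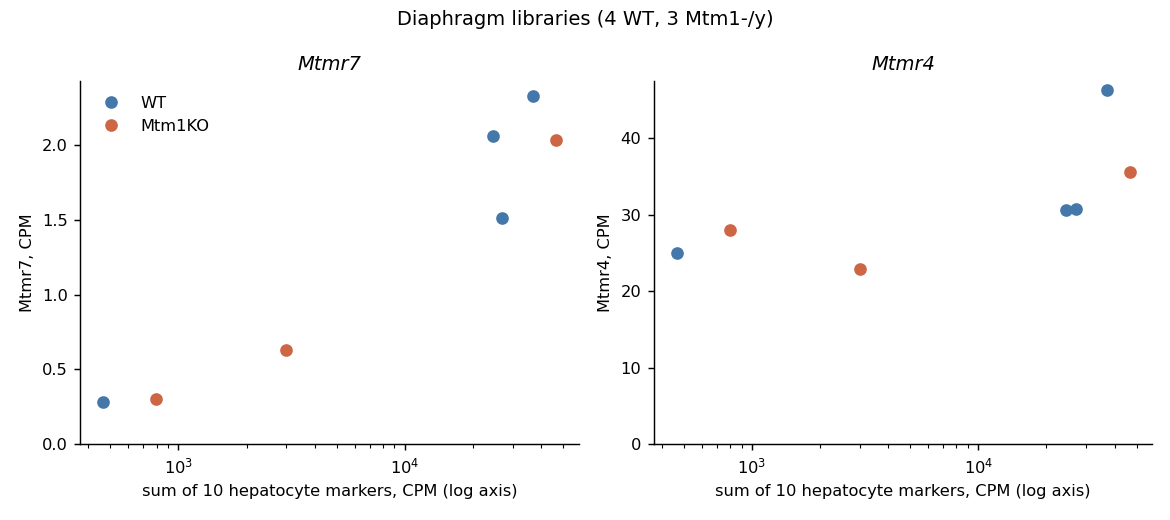
Level of *Mtmr7* (left) and *Mtmr4* (right) in the 7 diaphragm libraries, in CPM, against the summed CPM of 10 hepatocyte markers on a log axis. Blue points are WT and orange points Mtm1KO libraries. *Mtmr7* is 0.279 to 0.631 CPM in the 3 libraries below 10000 CPM of markers and 1.51 to 2.33 CPM in the other 4, and the highest *Mtmr4* level, 46.3 CPM, is also in a library above it.

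*Mtmr14* (chr6:113237843-113281392) was highest in the liver, at 33.8, 34.9 and 35.3 CPM in WT. It was 20.2, 21.8, 19.6 and 22.9 CPM in the gastrocnemius, 19.2, 17.4, 16.1 and 19.6 CPM in the diaphragm and 14.3, 16.0, 16.8 and 18.1 CPM in the heart. The liver exceeded the heart by a log2 difference of 1.05 (adjusted p = 1.9e-07), and the heart and diaphragm did not differ beyond their spread (-0.16, adjusted p = 0.16), although the heart was called lower without WT diaphragm 3 (-0.28, adjusted p = 0.018) or WT heart 4 (-0.28, adjusted p = 0.021). On library totals the heart and gastrocnemius difference of *Mtmr14* turned from -0.41 to 0.19 and that of the gastrocnemius and diaphragm from 0.25 to -0.27. The latter call was lost in 8 of 15 fits that left out 1 library (WT gastrocnemius 2 or 4, WT diaphragm 1, 2, 3 or 4, WT heart 1 or 4). It was also lost without the 4 diaphragm libraries high in hepatocyte markers (0.40, adjusted p = 0.082).

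Levels of different members can be compared per length, as RPKM (CPM divided by the kilobases in the union of exons). In WT gastrocnemius *Mtmr6* (20.7 RPKM, SD 1.13) and *Mtmr3* (16.5 RPKM, SD 1.4) were the most abundant members, ahead of *Mtmr1* (7.95), *Mtmr14* (7.02), *Mtmr2* (4.37), *Mtmr4* (3.49), *Mtm1* (1.52) and *Mtmr7* (0.0944). In WT liver the order opened with *Mtmr4* (13.7 RPKM, SD 3.27) and *Mtmr14* (11.5 RPKM, SD 0.254), and *Mtmr7* reached 2.58 RPKM against 1.41 RPKM for *Mtm1*. With length as the longest transcript both of these orders turned for *Mtm1*, which was at 5.16 RPKM against 3.78 for *Mtmr4* in WT gastrocnemius and at 4.78 RPKM (SD 1) against 4.10 (SD 0.511) for *Mtmr7* in WT liver. *Mtm1* made up 2.47% of the summed RPKM of the 8 members in WT gastrocnemius, 3.06% in diaphragm, 3.72% in heart and 2.51% in liver. The shares depend on length too, since the exons of *Mtm1* cover 13935 bases in union and its longest transcript 4111 bases. With the longest transcript they were 6.55%, 8.07%, 9.71% and 6.74%. *Mtm1* was below *Mtmr1* and *Mtmr2* per length in all 4 WT tissues with the union of exons, and with the longest transcript it was above *Mtmr2* in the heart (5.59 against 4.91 RPKM) and below it in the other tissues.

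**Figure D3:**
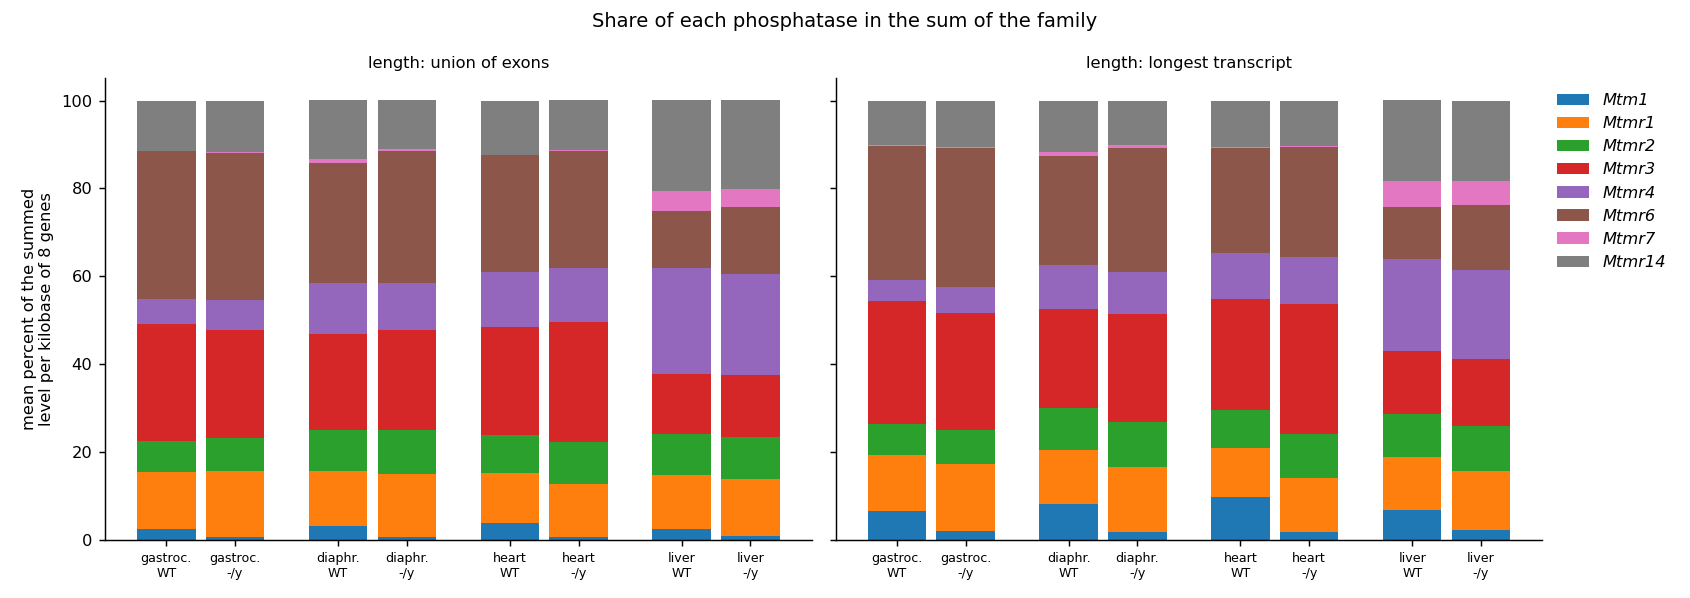
Mean share of each member in the summed level per kilobase of the 8 phosphatases, in percent (vertical axis), for WT and *Mtm1*-/y (-/y) libraries of each tissue, with length as the union of exons (left) or the longest transcript (right). *Mtmr6* and *Mtmr3* lead in the gastrocnemius, *Mtmr4* and *Mtmr14* in the liver, and the *Mtm1* share in WT rises from 2.47 to 3.72% (left) to 6.55 to 9.71% (right).

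The next comparison asked whether the 7 other phosphatases changed with the loss of *Mtm1*, and first whether *Mtmr1* and *Mtmr2*, its closest relatives, rose. *Mtmr1* did not pass the test in any tissue on the TMM scale. In the gastrocnemius its level in *Mtm1*-/y mice was 44.03, 45.6, 40.9 and 44.04 CPM, inside or just below the WT range, with a log2 fold change of -0.08 (95% interval -0.23 to 0.07, adjusted p = 0.39). In the diaphragm it was 36.5, 32.6 and 40.8 CPM, with a log2 fold change of 0.16 (-0.13 to 0.44, adjusted p = 0.72). In the heart it was 32.0, 30.2, 29.9 and 32.2 CPM, with a log2 fold change of 0.04 (-0.10 to 0.18, adjusted p = 0.77). In the liver it was 37.5, 44.5, 39.0 and 48.4 CPM, with a log2 fold change of 0.07 (-0.18 to 0.33, adjusted p = 0.97). The genotypes overlapped in all 4 tissues. The highest upper bound of these intervals was 0.44, in the diaphragm.

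The gastrocnemius value of *Mtmr1* depended on the scale. As CPM of the library total, without TMM, it was 38 (SD 2.52, range 35.4 to 41.1, n = 4) in WT and 45.3 (SD 1.27, range 43.8 to 46.9, n = 4) in *Mtm1*-/y mice, a log2 fold change of 0.25 that passed the test (adjusted p = 0.01). This was below the median of all genes on that scale, 0.35. The share of *Mtmr1* in the summed RPKM of the 8 members needs no library scale. It was 12.5 to 13.5% in WT and 14.3 to 15.6% in *Mtm1*-/y gastrocnemius, without overlap. The mean share was 12.9% and 14.9% there, 12.6% and 14.4% in diaphragm, 11.5% and 12.1% in heart and 12.2% and 13% in liver. The share is set by all 8 members, so it does not show which of them moved.

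*Mtmr2* was lower in *Mtm1*-/y gastrocnemius, at 17.2, 19.6, 18.5 and 17.9 CPM against 21.6, 22.2, 22.2 and 19.9 CPM in WT, without overlap. Its log2 fold change was -0.22 (-0.38 to -0.06, adjusted p = 0.047, DESeq2 0.038), the call was lost in 6 of 8 fits that left out 1 library (WT 1, 2 or 3, *Mtm1*-/y 1, 3 or 4), and on library totals the value was 0.12 (adjusted p = 0.27). In the other tissues *Mtmr2* did not pass the test. Its *Mtm1*-/y level was 21.3, 19.7 and 22.6 CPM in the diaphragm (log2 fold change 0.05, -0.16 to 0.25, adjusted p = 0.93). It was 22.2, 17.7, 21.2 and 21.2 CPM in the heart, where 3 of 4 libraries were above all WT libraries and 1 below them (0.14, -0.05 to 0.34, adjusted p = 0.56). It was 25.9, 23.9, 27.1 and 28.3 CPM in the liver (0.02, -0.20 to 0.25, adjusted p = 0.99). Averaged over the 4 tissues, the log2 fold change was 0.04 for *Mtmr1* (-0.05 to 0.14, adjusted p = 0.67) and -0.01 for *Mtmr2* (-0.08 to 0.07, adjusted p = 1). On library totals these averages were 0.12 (adjusted p = 0.08) and 0.07 (adjusted p = 0.37), where the median of all genes was 0.07.

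The mean *Mtm1* lost per length can be set beside the change of *Mtmr1* plus *Mtmr2*. In the gastrocnemius *Mtm1* was lower by 1.16 RPKM and the sum of *Mtmr1* and *Mtmr2* differed by -1.15 RPKM between *Mtm1*-/y and WT, but on library totals the difference turned to 1.53 against a loss of 0.871. In the diaphragm the loss was 1.1 RPKM and the difference 0.642, in the heart 1.37 and 0.6 and in liver 0.942 and 0.516, none of them from a called change of *Mtmr1* or *Mtmr2*. With the longest transcript as length the loss was 3.94, 3.73, 4.66 and 3.19 RPKM in these 4 tissues against -1.48, 0.813, 0.772 and 0.656 RPKM. On library totals the values with that length were 2.95, 4.20, 5.63 and 2.59 lost against 1.94, 1.68, 0.299 and 0.0997, and with the union of exons they were 1.24, 1.66 and 0.763 lost against 1.32, 0.23 and 0.0803 in diaphragm, heart and liver. Whether the loss or the difference was larger in the gastrocnemius and diaphragm thus depended on scale and length. The 7 phosphatases without *Mtm1* summed to 82.5% of WT in *Mtm1*-/y gastrocnemius (49.6 RPKM, SD 1.62, against 60.2, SD 3.1), but to 105% on library totals. Their sum was 98.6% of WT in diaphragm, 102% in heart and 101% in liver.

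In the gastrocnemius 6 of the 8 members were called, 1 higher and 5 lower, in a tissue where 29% of the 15456 genes tested were called (14.1% higher and 14.9% lower). DESeq2 called 5 members, against 26.7% of all genes. For 5 members, *Mtm1*, *Mtmr2*, *Mtmr3*, *Mtmr6* and *Mtmr14*, the genotypes did not overlap, as for 30.6% of all genes. The median log2 fold change of the 7 others was -0.22, against 0.016 for all genes. On library totals 4 members were called, *Mtm1* lower and *Mtmr1*, *Mtmr4* and *Mtmr7* higher, against the 53.7% of all genes called on that scale.

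*Mtmr3* had the largest fall after *Mtm1* in the gastrocnemius, to 90.5, 91.5, 97.1 and 96.2 CPM from 116 to 139 CPM (-0.40 on the log2 scale, SE 0.0709, adjusted p = 0.0027). *Mtmr6* fell to 73.5, 76.5, 68.6 and 79.2 CPM from 87.2 to 97.0 CPM (-0.29, SE 0.0681, adjusted p = 0.01). Both calls held whichever library was left out, and neither held on library totals, where *Mtmr3* was at -0.06 (adjusted p = 0.41) and *Mtmr6* turned to 0.04 (adjusted p = 0.61). *Mtmr14*, which is linked to autophagy and carries variants in some patients with centronuclear myopathy, was 17.5, 15.4, 17.1 and 19.3 CPM in *Mtm1*-/y mice (-0.27, SE 0.0854, adjusted p = 0.039). Its call was lost in 6 of 8 fits that left out 1 library (WT 1, 2 or 4, *Mtm1*-/y 1, 2 or 3), and on library totals it turned to 0.07 (adjusted p = 0.5).

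*Mtmr7* was higher in *Mtm1*-/y gastrocnemius, at 0.571, 0.722, 0.900 and 0.756 CPM against 0.574, 0.3998, 0.357 and 0.350 CPM in WT, with an overlap between *Mtm1*-/y 1 and WT 1. Its log2 fold change was 0.81 (SE 0.261, adjusted p = 0.043, DESeq2 0.11) and on library totals 1.14 (adjusted p = 0.007), and the call was lost in 6 of 8 fits that left out 1 library (WT 2, 3 or 4, *Mtm1*-/y 2, 3 or 4). *Mtmr4* did not pass, at 19.1, 20.6, 22.3 and 23.0 CPM in *Mtm1*-/y mice (-0.02, adjusted p = 0.89), and on library totals it turned to 0.32 (adjusted p = 0.026). Relative to the median of all genes on library totals, the members stood at -2.08 (*Mtm1*), -0.10 (*Mtmr1*), -0.24 (*Mtmr2*), -0.41 (*Mtmr3*), -0.04 (*Mtmr4*), -0.31 (*Mtmr6*), 0.79 (*Mtmr7*) and -0.28 (*Mtmr14*). The order of the members was the same on both scales, which is no separate result, since a change of scale moves all genes of a library alike.

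Markers of cell types also differed between the genotypes in the gastrocnemius, where 14.1% of all genes were called higher and 14.9% lower. Of 10 skeletal muscle fibre markers 8 fell and 2 rose, and their sum was 228000 to 273000 CPM in WT against 146000 to 161000 CPM in *Mtm1*-/y mice. Macrophage markers rose for 7 of 8, with a sum of 41.9 to 73.1 CPM in WT against 102 to 125 CPM in *Mtm1*-/y mice. While 3 of 6 fibroblast markers and 6 of 10 adipocyte markers rose, the sums of both lists overlapped between the genotypes. The fibroblast sum was 3160 to 8660 CPM in WT against 3670 to 10700 CPM in *Mtm1*-/y mice. The adipocyte sum was 615 to 1020 CPM (median 803) against 651 to 1150 CPM (median 743). Of 5 endothelial markers 2 fell, with a sum of 332 to 437 CPM in WT against 245 to 318 CPM in *Mtm1*-/y mice. Of 7 cardiomyocyte markers tested, which slow muscle fibres share in part, 3 rose and 1 fell, and their sum was 7060 to 8570 CPM in WT against 1100 to 3080 CPM in *Mtm1*-/y mice. Of 9 hepatocyte markers 1 rose and 1 fell, 1 of 2 B cell markers tested fell and 0 of 5 red blood cell markers were called. The sum of the 5 B cell markers in the list was 60 to 83.7 CPM in WT against 5.81 to 9.27 CPM in *Mtm1*-/y mice. On library totals 49.5% of all genes were called higher and 4.19% lower. On that scale 8 fibre markers were still lower and 2 higher. Of macrophage markers 8 of 8, of adipocyte markers 8 of 10 and of fibroblast markers 4 of 6 were higher, and 0 of 5 endothelial markers were called. In diaphragm, heart and liver edgeR called 0 markers. DESeq2, which called 2.37%, 0.453% and 0.135% of all genes there, called 4 of 6 fibroblast and 2 of 9 cardiomyocyte markers in the diaphragm. It called 6 of 10 adipocyte, 1 of 8 macrophage and 1 of 10 hepatocyte markers in the heart and 2 of 7 cardiomyocyte markers in the liver. The median log2 fold changes by edgeR over all tested markers of these lists were 1.28 and 0.71 in the diaphragm and 0.98 in the liver. In the heart they were -2.34 (adipocyte), -0.11 (macrophage) and 2.20 (hepatocyte). The part of these shifts in the results on *Mtmr2*, *Mtmr3*, *Mtmr6*, *Mtmr7* and *Mtmr14* was not tested, and in whole tissue fewer cells of a type and less RNA per cell cannot be told apart.

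**Figure D4:**
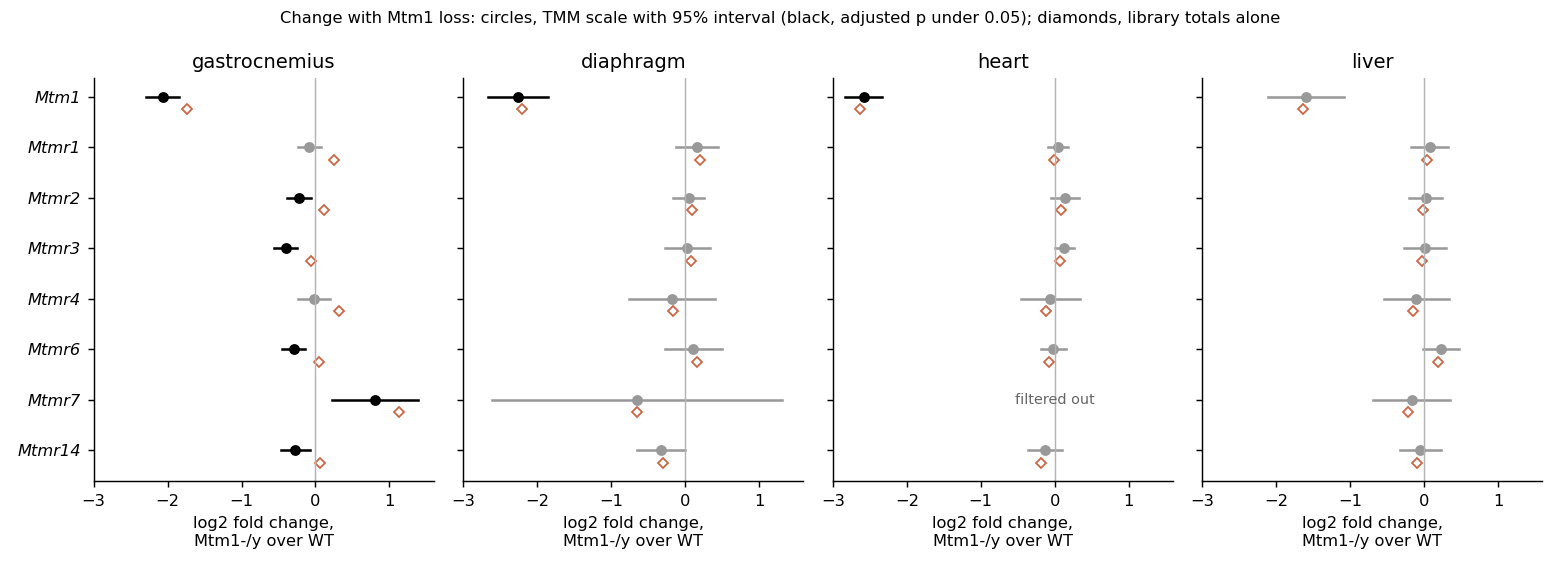
Log2 fold change of each member, *Mtm1*-/y over WT (horizontal axis), in 4 tissues. Circles with 95% intervals are on the TMM scale (black where the edgeR adjusted p is under 0.05, grey otherwise), and open diamonds use library totals alone. In the gastrocnemius *Mtmr2*, *Mtmr3*, *Mtmr6* and *Mtmr14* lie at -0.40 to -0.22 on the TMM scale and at -0.06 to 0.12 on library totals, and *Mtmr7* was filtered out in the heart.

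Outside the gastrocnemius *Mtm1* was the only member called by edgeR or DESeq2 in any tissue. In the diaphragm 1 of 8 members was called, where 0.0119% of all genes were (2 genes, and 2.37% by DESeq2), and 1 did not overlap between genotypes (9.94% of all genes). In the heart 1 of 7 members tested was called, where 0.00656% of all genes were (1 gene, *Mtm1* itself, and 0.453% by DESeq2), and 2 did not overlap (4.17% of all genes). In the liver 0 of 8 members were called by edgeR, as were 0% of all genes, 1 member (*Mtm1*) had an unadjusted p under 0.05 (4.24% of all genes), DESeq2 called 1 member (0.135% of all genes), and 1 did not overlap (5.56% of all genes). The median log2 fold change of the other members was 0.03, 0.01 and 0.01 in diaphragm, heart and liver, against -0.01, -0.002 and 0.005 for all genes.

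*Mtmr3* was the second member that did not overlap in the heart, at 82.0, 85.9, 81.8 and 81.8 CPM in WT against 90.9, 88.8, 94.9 and 90.7 CPM in *Mtm1*-/y mice. Its log2 fold change was 0.13 (0.00 to 0.26), with an unadjusted p of 0.048 and an adjusted p of 0.55 by edgeR. *Mtmr6* in the liver was 32.5, 40.5, 37.3 and 42.1 CPM in *Mtm1*-/y mice against 30.8 to 34.7 CPM in WT, with 3 of 4 libraries above the WT range (0.23, unadjusted p = 0.064, adjusted p = 0.97). Its share of the summed RPKM there was 12.1 to 13.4% in WT and 14 to 16.3% in *Mtm1*-/y mice, without overlap. This share is set by all 8 members, *Mtm1* among them, so it does not show that *Mtmr6* moved. *Mtmr14* in the diaphragm was 12.6, 16.7 and 13.4 CPM in *Mtm1*-/y mice against 16.1 to 19.6 CPM in WT, an overlap of 1 library (-0.32, -0.65 to 0.01, unadjusted p = 0.053, adjusted p = 0.47).

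*Mtmr14* was also the member, besides *Mtm1*, called in the average over the 4 tissues, where 4.78% of all genes were called. Its average log2 fold change was -0.20 (SE 0.054, adjusted p = 0.031, DESeq2 0.0051). The value in single tissues was -0.27, -0.32, -0.13 and -0.05 in gastrocnemius, diaphragm, heart and liver. The call was lost in 8 of 30 fits that left out 1 library (WT gastrocnemius 4, *Mtm1*-/y gastrocnemius 3, WT diaphragm 4, *Mtm1*-/y diaphragm 1 or 4, *Mtm1*-/y heart 3, WT liver 2 or 3), on library totals (-0.13, adjusted p = 0.14) and without the 4 diaphragm libraries high in hepatocyte markers (-0.18, adjusted p = 0.092). Whether tissues came from the same mice is not given in the labels, so this p may be too small.

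A call in 1 tissue and not in another is not a difference, so the change with *Mtm1* loss was compared between tissues directly. Between heart and gastrocnemius 5 of 8 members were called (3 higher and 2 lower in the heart), where 19.8% of all genes were (9.94% higher and 9.89% lower). The 2 lower were *Mtm1* and *Mtmr7*, and the call of *Mtmr7* is not read as a result, for the reason given below. *Mtmr3* had the difference with the smallest p, 0.55 (SE 0.0889, adjusted p = 0.001). *Mtmr2* differed by 0.38 (SE 0.107, adjusted p = 0.023), a call lost without *Mtm1*-/y heart 1 or 3. *Mtmr6* differed by 0.30 (SE 0.0989, adjusted p = 0.047), a call lost in 12 of 16 fits that left out 1 library. The value of *Mtmr7* was -1.92 (SE 0.631, adjusted p = 0.044, lost in 12 of 16 such fits). It is not read as a call, since *Mtmr7* had 2 to 21 counts in the heart libraries, failed the filter there and entered this fit through the gastrocnemius. *Mtmr1* did not pass (0.14, adjusted p = 0.26), but on library totals it turned to -0.27 (adjusted p = 0.019). On library totals, where the median of all genes was -0.44, *Mtmr2* turned to -0.03 (adjusted p = 0.86) and *Mtmr6* to -0.12 (adjusted p = 0.42), *Mtmr3* was 0.14 (adjusted p = 0.18) and *Mtmr7* -2.35 (adjusted p = 0.011).

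Between liver and gastrocnemius 1 of 8 members differed, *Mtmr6*, where 6.34% of all genes did. Its difference was 0.55 (SE 0.121, adjusted p = 0.016), a call that held whichever library was left out and was 0.15 (adjusted p = 0.39) on library totals. On that scale *Mtmr7* was called, at -1.35 (adjusted p = 0.014), against -0.94 (adjusted p = 0.12) with TMM. In the other 4 pairs of tissues 0 members were called by edgeR or by DESeq2. Of all genes edgeR called 0.00573% between heart and diaphragm, 0.28% between gastrocnemius and diaphragm, 0% between liver and diaphragm and 0% between liver and heart, and DESeq2 called 1.23%, 2.13%, 0.092% (liver and diaphragm) and 3.56% (liver and heart). At an unadjusted p under 0.05 there were 0 members between heart and diaphragm (10.6% of all genes), 3 between gastrocnemius and diaphragm (12.8%), 1 between liver and diaphragm (5.12%) and 1 between liver and heart (5.56%).

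**Figure D5:**
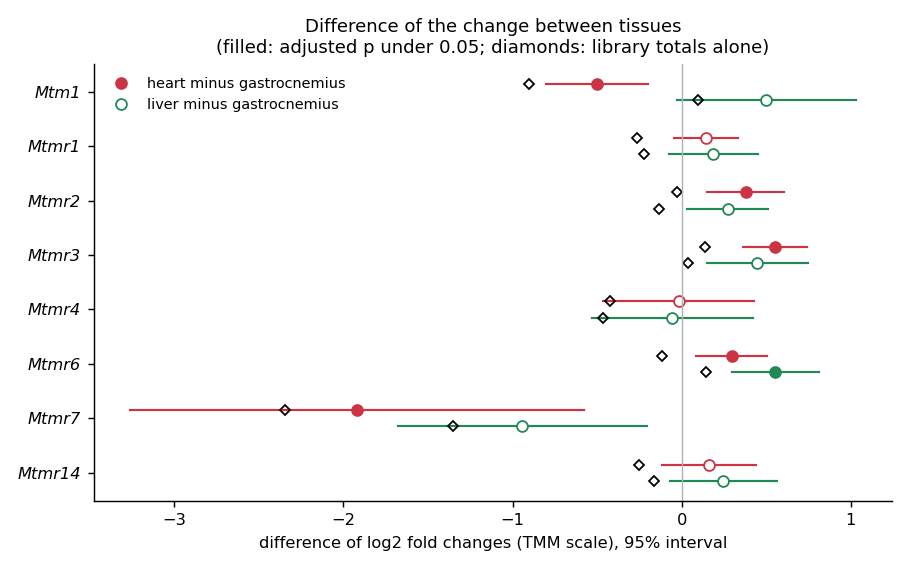
Difference between tissues in the log2 fold change with *Mtm1* loss (horizontal axis), heart minus gastrocnemius (red) and liver minus gastrocnemius (green), with 95% intervals. Filled circles passed at an edgeR adjusted p under 0.05, and diamonds show library totals alone, where *Mtmr2* moves from 0.38 to -0.03 and *Mtmr3* from 0.55 to 0.14 between heart and gastrocnemius. The red *Mtmr7* circle is filled, although *Mtmr7* failed the filter in the heart.

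Most active myotubularins work in pairs with inactive relatives that have lost the catalytic residues. In the gastrocnemius 2 of 6 inactive partners rose and 2 fell (median 0.12), where 14.1% of all genes were called higher and 14.9% lower. *Mtmr11* had a WT mean of 6.85 CPM (SD 0.872) and rose to 10.4 CPM (SD 2.04), which is 0.61 on the log2 scale (adjusted p = 0.013). *Mtmr9*, the partner of Mtmr6 and Mtmr7, rose from 14.1 to 16.3 CPM (0.22, adjusted p = 0.044, DESeq2 0.059). *Mtmr10* fell from 35.4 to 24.1 CPM (-0.54, adjusted p = 0.019, and -0.21, adjusted p = 0.3, on library totals). *Sbf1*, a partner of Mtmr2 also known as Mtmr5, was 94 CPM in WT against 79.8 CPM in *Mtm1*-/y mice (-0.22, adjusted p = 0.026), and on library totals it turned to 0.11. On that scale 3 of the 6 partners were higher and 0 lower, where 49.5% of all genes were higher.

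Other genes of the pathway were read from lists by role. Their gastrocnemius counts on the TMM scale stand against 29% of all genes called by edgeR (14.1% higher and 14.9% lower) and 26.7% by DESeq2. Those on library totals stand against the 49.5% of all genes called higher on that scale. Of the kinases that make PI3P and their subunits 0 of 8 tested were called in the gastrocnemius by edgeR or DESeq2 (*Becn1* -0.11, *Pik3c2b* 0.01), whereas 7 of 8 were called higher on library totals (*Becn1* 0.22, *Pik3c2b* 0.34). Of the 3 genes of the PIKfyve complex, *Vac14*, its scaffold, rose from 31.4 (SD 2.79) to 47.3 CPM (SD 5.06; 0.60, adjusted p = 0.0014, and 0.94 on library totals, where 3 of 3 were called higher). Of 13 readers of PI3P tested, *Wipi1*, which acts in autophagy, rose (0.33, adjusted p = 0.02), and the endosomal proteins *Zfyve9* (-0.48, adjusted p = 7e-04) and *Rbsn* (-0.34, adjusted p = 0.009) fell, but were at -0.15 and -0.01 on library totals, where 8 of the 13 were called higher and 0 lower. Of the readers and channels of PI(3,5)P2 0 of 5 were called and of other phosphoinositide phosphatases 0 of 10, by edgeR and by DESeq2, and on library totals 5 of 5 and 5 of 10 were called higher. Of 5 other centronuclear myopathy genes, *Ttn* (-0.62, adjusted p = 0.0012), *Ryr1* (-0.52, adjusted p = 0.0029) and *Speg* (-0.44, adjusted p = 0.0097) fell, and these 3 encode sarcomere or triad proteins of the muscle fibre. On library totals they were at -0.28, -0.18 and -0.10, and *Ttn* alone of the 3 was called (adjusted p = 0.0083). In the diaphragm, heart and liver 0 members of these 7 lists were called by either tool, and *Vac14* was at 0.39 (adjusted p = 0.29), 0.21 and -0.04.

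The *Mtmr1* gene starts 49068 bases after the end of *Mtm1* on the same strand, so its level and that of its neighbours were also read as values near the disrupted locus. Of 14 annotated genes within 500 kb of *Mtm1*, 10 were in the table and 5 were tested in at least 1 tissue (*Mtmr1*, *Cd99l2*, *Hmgb3*, *Mamld1* and *Gpr50*). On the TMM scale none was called in any of the 4 tissues by edgeR (adjusted p from 0.38 to 0.98). On library totals *Mtmr1*, *Cd99l2* (-0.10 with TMM, 0.23, adjusted p = 0.03) and *Mamld1* (0.12 with TMM, 0.45, adjusted p = 0.018) were called higher in the gastrocnemius and none in the other tissues. On that scale 49.5% of all genes were called higher in the gastrocnemius, and their median log2 fold change over all genes tested was 0.35, above the values of *Mtmr1* and *Cd99l2*. With TMM the smallest p was that of *Mamld1* in the heart, with 4 WT libraries at a mean of 14.7 CPM (SD 3.02) and 4 *Mtm1*-/y libraries at 11.5 CPM (SD 0.649), a log2 fold change of -0.36 (unadjusted p = 0.03, adjusted p = 0.55). *Cd99l2* in the diaphragm was at 0.47 (adjusted p = 0.53).

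The tissue patterns were last compared over the 15 WT libraries, as Pearson's r of log2(CPM + 0.5), which mostly follows the differences between the 4 tissues. Among the members *Mtmr3* and *Mtmr6*, the members highest in the gastrocnemius per length, had r = 0.951, *Mtmr14* and *Mtmr7* 0.859, *Mtmr14* and *Mtmr2* 0.855, *Mtmr7* and *Mtmr4* 0.851, and *Mtmr6* and *Mtmr4* -0.903. *Mtmr1* and *Mtm1*, neighbours on the chromosome, had r = 0.0944. The genes most like *Mtmr3* were *Cops4* (0.983), *Dym* (0.983) and *Tlk2* (0.982), those most like *Mtmr6* were *Gm47155* (0.992), *Kcnab1* (0.99) and *Camk2g* (0.989), and those most like *Mtmr1* were *Mkln1* (0.969), *Psmd2* (0.966) and *Fbxl17* (0.96). For *Mtmr4* they were *Cflar* (0.98), *Spcs3* (0.976) and *Tmed7* (0.975), and for *Mtmr14* *Pigt* (0.982), *Slc35c2* (0.98) and *Zfyve19* (0.978). *Mtmr7* shared its liver pattern with 1246 genes at r over 0.95, among them *P2ry4* and *Gclm* (0.994 each). *Mtmr2* was most like *Nucks1*, *Rbm34* and *Znrf2* (0.951 each). *Mtm1* had no gene at r over 0.95, and its closest were *Nr2c2* (0.845), *Ppfia2* (0.813) and *Zfp993* (0.807). These names depend on the measure. By Spearman's rho 1 of the 3 was among the 3 closest for *Mtm1*, *Mtmr2* and *Mtmr7* each, and 0 of 3 for the other 5 members.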

How the data were processed

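Poly(A) RNA was sequenced in 30 libraries of 4 tissues. The deposited values are raw read counts per gene, made by the authors from stranded single reads of 50 bases trimmed with cutadapt 1.10, aligned to mm10 with STAR 2.5.3a and counted over uniquely aligned reads with HTSeq 0.6.1p1. The strand setting of the counting is not given in the sources used here. Reads shared with a near copy are dropped by such counting.

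Groups were taken from the labels. Counts were analysed here in R 4.3.3 with edgeR 4.0.16 (filterByExpr with min.count 10, TMM, quasi-likelihood F test, p-values adjusted after Benjamini-Hochberg over all genes tested). Models were fitted within each tissue for genotype, over the 15 WT libraries for tissues, over both tissues of a pair for the difference of changes, and over all 30 libraries for the average. *Mtmr7* failed the filter in the heart and was kept in the other fits. Per-length levels used the GENCODE M21 annotation of mm10 and have no test. Total counts of 24873817 to 44289343 per library limit precision mainly for *Mtmr7*.

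The members and lists were chosen with earlier results of these data known. Named genes are the 8 members, in each list the called genes of smallest p (4 at most) or, where none was called, the 2 most abundant, the 3 genes most like each member (1 of them is not reported here), and tested genes within 500 kb of *Mtm1*. Lists of markers were written in the same way. Alternatives were DESeq2 1.42.0, its size factors, no filter, 1 fit of all 30 libraries, a scale without liver-enriched genes, an absolute log2 fold change over 1, the replicate number as a block, the longest transcript as length, Spearman's rho, and leaving out each library. Library totals alone and a fit of 26 libraries without the diaphragm libraries over 10000 CPM of hepatocyte markers were added after seeing the data. No protein sequence was used.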

Additional observations from a re-analysis of the deposited data

Results flagged for a closer look

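Of 48 groups of 4 libraries tested, 4 held a library whose gap to the nearest other library was a large part of the group's range by Dixon's criterion, and chance gives about 1 in 20. WT gastrocnemius 3 had 22.3 CPM of *Mtm1*, with the other 3 at 20.8 to 20.95 CPM. WT heart 2 had 85.9 CPM of *Mtmr3*, with the other 3 at 81.8 to 82.0 CPM. *Mtm1*-/y heart 4 had 0.323 CPM of *Mtmr7*, with the other 3 at 0.0612 to 0.104 CPM. *Mtm1*-/y liver 2 had 40.8 CPM of *Mtmr14*, with the other 3 at 30.6 to 31.6 CPM.

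With TMM, edgeR's test of the difference itself called 5 differences between tissues in the change with *Mtm1* loss. These were *Mtm1* (-0.50), *Mtmr2* (0.38), *Mtmr3* (0.55) and *Mtmr6* (0.30) between heart and gastrocnemius (19.8% of all genes called), and *Mtmr6* (0.55) between liver and gastrocnemius (6.34%). Between heart and gastrocnemius, leaving out 1 library lost the call of *Mtmr2* in 2 of 16 fits and that of *Mtmr6* in 12 of 16. On library totals these differences were -0.90, -0.03, 0.14, -0.12 and 0.15. Of them *Mtm1* alone was called there (edgeR adjusted p = 4e-04, against 0.86, 0.18, 0.42 and 0.39). The value of *Mtmr7* between heart and gastrocnemius (-1.92, and -2.35 on library totals) is not counted among them. It rests on 2 to 21 counts per heart library, too few for a test in the heart.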

How the results depend on the processing

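Replicate numbers did not meet the criterion for pairing, an r over 0.1 in every pair. Of 14 same-numbered WT and *Mtm1*-/y pairs within a tissue, deviations from the group means had r from -0.68 to 0.494, and 5 pairs were over 0.1. Of 21 same-numbered pairs of WT libraries between tissues, r was -0.09 to 0.272, 6 were over 0.1 and 11 had their highest r with their own number. The tests between tissues took libraries of different tissues as separate mice, and the labels do not say whether they were. Missing a criterion that every pair must meet does not show that they were separate mice. With the replicate number as a block, 0 members were higher and 3 lower in the gastrocnemius, 0 members and 0 genes were called in the diaphragm (*Mtm1* -2.12, adjusted p = 0.57), *Mtmr2* and *Mtmr3* in the liver were at -0.0058 and -0.0686, and 1 member was lower in the heart and gastrocnemius difference.

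With no filter on low counts, 0 members were higher and 3 lower in the gastrocnemius, 1 member (*Mtm1*, -1.59, adjusted p = 0.0079) and 8 genes were called in the liver, 1 member was lower between heart and diaphragm, 3 higher between liver and diaphragm, 1 higher and 1 lower in the heart and gastrocnemius difference, and 1 lower in the average, where *Mtmr2* was at 0.0131. With DESeq2, 0 members were higher in the gastrocnemius, 438, 85 and 25 genes were called in diaphragm, heart and liver (in the last 1 member, *Mtm1*, -1.59), 1 member was lower between heart and diaphragm, *Mtm1* between liver and diaphragm was at 0.0395, and 2 members were higher in the liver and gastrocnemius difference. With its size factors in edgeR, 1 member was lower between heart and diaphragm and *Mtm1* between liver and diaphragm was at 0.0464. In 1 fit of all 30 libraries, 0 members were higher and 2925 genes called in the gastrocnemius, and 274, 5 and 14 genes were called in diaphragm, heart and liver, with *Mtm1* in the liver (1 member) at -1.59 (adjusted p = 8.5e-06). With an absolute log2 fold change over 1 as well, 0 members were higher, 1 lower and 1024 genes called in the gastrocnemius.

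With library totals alone, 3 members were higher, 1 lower and 8294 genes called in the gastrocnemius, with *Mtmr1* at 0.25, *Mtmr2* 0.12, *Mtmr4* 0.32, *Mtmr6* 0.0414 and *Mtmr14* 0.0666. *Mtmr1* in the heart was at -0.0114, and *Mtmr2* and *Mtmr3* in the liver at -0.0166 and -0.0269. Between WT tissues 3 members were higher and 1 lower in heart against gastrocnemius (*Mtmr2* 0.35, *Mtmr14* 0.19), 1 and 1 in heart against diaphragm (*Mtmr6* 0.0073), 2 and 5 in gastrocnemius against diaphragm (*Mtm1* -0.35, *Mtmr1* -0.0026, *Mtmr2* -0.44, *Mtmr14* -0.27), 3 and 5 in liver against diaphragm (*Mtmr1* -0.26, *Mtmr2* -0.22), and 3 were higher in liver against heart (*Mtmr1* -0.17, *Mtmr2* -0.12). Of 17725 genes, 10373 were called higher and 2498 lower in heart against gastrocnemius, and 4415 and 4602 in heart against diaphragm. These counts were 1517 and 10790 in gastrocnemius against diaphragm, 3731 and 9589 in liver against diaphragm, and 4011 and 9816 in liver against heart. In the heart and gastrocnemius difference 0 members were higher (*Mtmr1* -0.27, *Mtmr2* -0.029, *Mtmr6* -0.12), in the liver and gastrocnemius difference 0 were higher and 1 lower, and in the average 1 was lower (*Mtmr2* 0.0692). Of all genes tested, 405 were called higher and 6577 lower in the first of these, 135 and 3447 in the second, and 1599 and 190 in the average. On this scale the sum of the 7 was 105% of WT in the gastrocnemius. With the longest transcript the *Mtm1* share in WT was 6.55, 8.07, 9.71 and 6.74%.

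In the fit of 26 libraries, 13 genes were called in the diaphragm, with *Mtmr3* at -0.0931, *Mtmr4* 0.0464 and *Mtmr7* 0.76. Then 0 members were lower between heart and diaphragm (*Mtm1* -0.10, *Mtmr3* -0.0012, *Mtmr7* 0.20, *Mtmr14* 0.0012), 2 higher and 0 lower between gastrocnemius and diaphragm (*Mtm1* -0.19, *Mtmr7* 0.61), 3 higher between liver and diaphragm and 1 lower in the average (*Mtmr2* 0.0049).

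Leaving out 1 library at a time gave, in the gastrocnemius, 0 to 1 members higher and 3 to 4 lower, with *Mtmr4* at -0.0802 to 0.0483. In the diaphragm it gave 0 to 1 members lower and 0 to 162 genes called, with *Mtm1* at -2.33 to -2.10, *Mtmr3* -0.0265 to 0.11, *Mtmr4* -0.37 to 0.0297 and *Mtmr6* -0.0173 to 0.25. In the heart it gave 1 to 19 genes, with *Mtmr4* at -0.24 to 0.0409 and *Mtmr6* -0.0617 to 0.0307. In the liver it gave 0 to 8 genes, with *Mtmr2* at -0.0166 to 0.066, *Mtmr3* -0.0644 to 0.10, *Mtmr4* -0.27 to 0.0857 and *Mtmr7* -0.27 to 0.002. Between WT tissues *Mtm1* was at -0.0049 to 0.13 in heart against gastrocnemius and -0.19 to 0.12 in liver against diaphragm, and 1 to 4 members were lower in heart against diaphragm and 1 to 2 in gastrocnemius against diaphragm, with *Mtmr2* at -0.0207 to 0.12. The heart and gastrocnemius difference had 1 to 3 members higher and 1 to 2 lower, and the average 1 to 2 lower, with *Mtmr2* at -0.0181 to 0.0101.

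Among all values recomputed outside the fits that left out 1 library, 685 kept their direction and their side of the threshold, 43 lost a call, 8 gained one, 38 changed sign and 66 counts or levels moved. The causes were not tested. Library totals end the gastrocnemius calls of *Mtmr2*, *Mtmr3*, *Mtmr6* and *Mtmr14*. The fall of *Mtm1* with genotype kept its sign in each tissue in all of these settings. The depth limits *Mtmr7* in the heart, where its counts were too low for a test.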
